A study of Rattus norvegicus with 15 samples.

Results

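Liver transcripts of rats given PF-04923503 at 30 mg/kg were set against those of rats given vehicle. These were 10 of the 15 samples of the series, 5 in each group, chosen by their titles; the other 5 received 10 mg/kg and are named only where their values stand beside these. All samples came from male Sprague Dawley rats (Charles River), 7 weeks of age at the start and kept on a high fat diet with 59% of its energy from fat. Each animal was gavaged once a day for 6 weeks, with 0.5% methylcellulose in the vehicle group and with PF-04923503, named in the series title as an inhibitor of acetyl-CoA carboxylase (ACC), in the treated groups. The vehicle group ate the high fat diet as well, so both groups are models of diet-fed animals and no lean control enters. The labels number the samples within a group and do not tell whether each came from a rat of its own; p-values therefore speak for the spread among these samples alone. The comparison asks which transcripts differ in liver after 6 weeks of the higher dose.

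ACC makes malonyl-CoA, the building block for fatty acid synthesis and a brake on the entry of fatty acids into mitochondria. In liver the transcripts for making fatty acids are under the control of SREBP-1c, ChREBP and LXR, transcription factors that respond to insulin, sugar and oxidised sterols. LXR also governs sterol exporters, which pass cholesterol and plant sterols into bile.

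Values were log2 intensities of an Affymetrix rat array, whose probe sets are groups of short oligonucleotides meant to match the transcripts of a gene. The 436 probe sets that carry several gene symbols stood for no gene. In all, 9540 genes were tested, each through its brightest probe set. The hepatocyte markers of the labelled tissue were bright on every array: the mean of 17 measured markers, albumin among them, lay between 13.86 and 13.92 in vehicle and between 13.85 and 13.92 at 30 mg/kg. As whole livers were measured, fewer cells of a type and less RNA per cell cannot be told apart. Values on the treated arrays were spread over a slightly narrower range. The SD over all probe sets of an array was 2.18 ± 0.0124 in vehicle and 2.15 ± 0.0162 at 30 mg/kg (SD, n = 5 each), with no overlap between groups (exact permutation test, two-sided p = 0.00794, the smallest that 5 against 5 can give; adjusted p = 0.0424 over 8 array measures). The groups barely parted, with 2.168 as the highest treated and 2.170 as the lowest vehicle SD. The interquartile range was 3.18 against 3.08 (exact permutation p = 0.0159, adjusted p = 0.0424). The difference between 3′ and 5′ control probe sets, a measure of RNA integrity, was 0.394 ± 0.0321 against 0.367 ± 0.0876 for Gapdh (exact permutation p = 0.508). Treated sample 2 had the highest difference of the 15 arrays for Gapdh (0.502) and actin (1.909). For hexokinase it read 1.804, within the vehicle range of 1.76 to 1.87. The part of RNA integrity in the gene values of that sample was not tested.

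**Figure D1:**
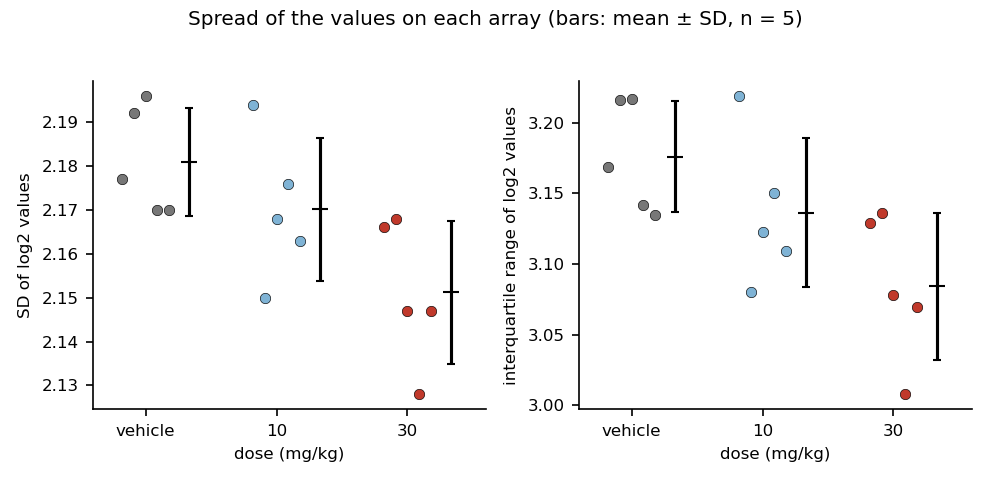
SD (left) and interquartile range (right) of the log2 values of each array by dose, with points for samples and bars for the mean ± SD of 5. The SD of the 5 arrays at 30 mg/kg lay between 2.13 and 2.17 and that of the 5 vehicle arrays between 2.17 and 2.20; the arrays at 10 mg/kg overlapped with both.

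No gene was called between 30 mg/kg and vehicle at a Benjamini-Hochberg adjusted p under 0.05 by limma (0 of 9540 genes; lowest adjusted p = 0.0979). At an unadjusted p under 0.05 there were 1535 genes, 16.1% of those tested, of which 1032 (10.8%) were lower and 503 (5.27%) higher at 30 mg/kg. The 5 treated and 5 vehicle values did not overlap in 306 genes (3.21%), 225 lower (2.36%) and 81 higher (0.849%). Lower genes thus made up 67.2% of the first set and 73.5% of the second. None of these genes was called, so lower and higher describe their values here and no change that passed the test.

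The excess of lower genes lay in small differences. Over all genes, 448 were lower and 223 higher by more than 1.2-fold, a share of 66.8% lower. Beyond 1.5-fold there were 56 lower and 42 higher, and beyond 2-fold 17 lower and 14 higher (54.8% lower). Among the genes whose groups did not overlap, the median size of the log2 difference was 0.22 for the lower and 0.20 for the higher ones, and 10 lower genes and 1 higher gene exceeded 1.5-fold. Of the genes beyond 2-fold, 4 of 17 lower and 0 of 14 higher had groups that did not overlap. The 14 higher ones include Scd, the stearoyl-CoA desaturase, with vehicle values of 6.82, 7.44, 8.94, 7.16 and 11.71 and treated values of 11.48, 14.14, 13.13, 11.84 and 10.77. Vehicle sample 5 lay inside the treated range of Scd.

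The excess also depended on brightness. In 5 equal bins of 1908 genes by mean log2 value, genes whose groups did not overlap were 22 lower and 45 higher in the dimmest bin. They were 41 and 17 in the next, 55 and 3 in the middle one, 59 and 5 in the one after, and 48 and 11 in the brightest. The direction was thus reversed among the dimmest genes. Of the 81 higher genes, 60.5% had a mean log2 value under 7, against 11.6% of the 225 lower genes and 22.1% of all genes. The filter asked for 5 of 15 values above 6.10, which a dim gene can meet through 1 group alone. Hebp2 (vehicle values from 5.88 to 6.08) and Srcin1 (5.97 to 6.03), both higher, passed only through samples given the drug. Such genes were not counted separately.

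**Figure D2:**
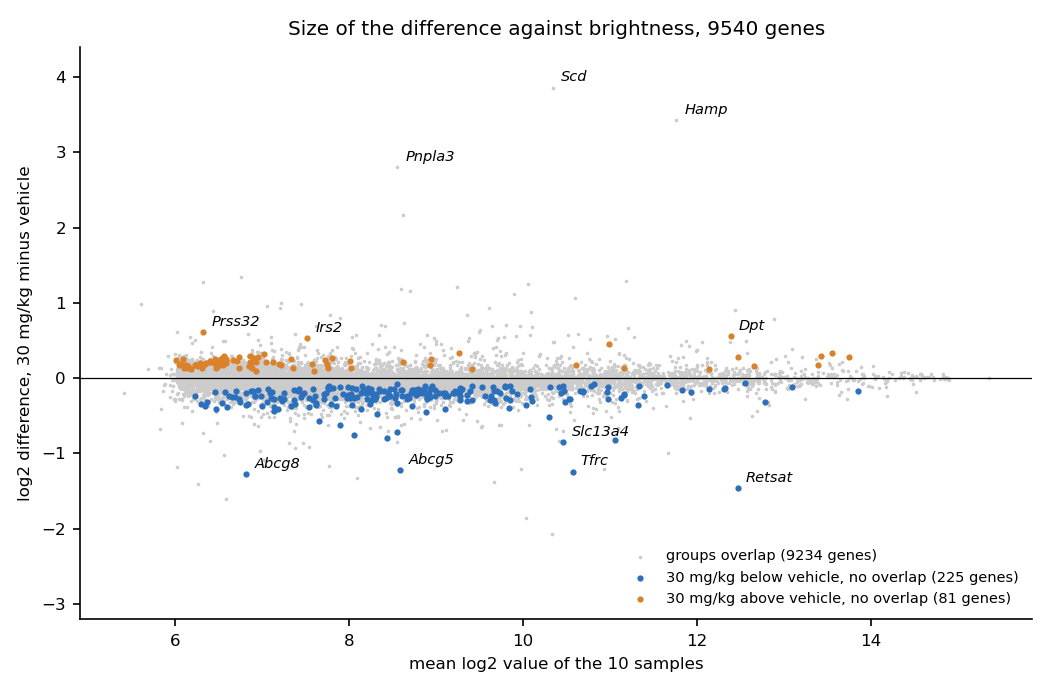
Log2 difference between 30 mg/kg and vehicle (vertical) against the mean log2 value of the 10 samples (horizontal), 1 point per gene, with blue for the 225 genes below and orange for the 81 genes above vehicle without overlap. Orange points crowd the dim end, blue points the middle, and the highest points, Scd, Hamp and Pnpla3, are grey because their groups overlapped.

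The balance followed the scaling of the arrays. With the deposited values, 5917 of 9540 genes lay below 0, and the median log2 difference was -0.032. After quantile normalisation, which gives every array the same distribution, the median was 0.003 and 42.5% of genes at an unadjusted p under 0.05 were lower (546 of 1284). The groups then did not overlap in 113 lower and 164 higher genes. After cyclic loess, an intensity-dependent scaling added after the data were seen, these counts were 150 lower and 132 higher, and 49.6% of genes at an unadjusted p under 0.05 were lower. Centring each array on its median moved the share the other way, to 75.6%. All 306 genes kept their sign under the 3 other scalings. Of them, 158 (98 lower, 60 higher) did not overlap under any scaling. Counted by size, 330 genes were lower and 278 higher by more than 1.2-fold after quantile normalisation (54.3% lower), and 17 lower and 15 higher by more than 2-fold. By brightness, genes without overlap were then 23 lower and 18 higher in the middle bin, 22 and 20 in the one after and 25 and 23 in the brightest, against 23 and 61 in the dimmest. The part of the narrower range of the treated arrays in the excess of lower genes was not tested.

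**Figure D3:**
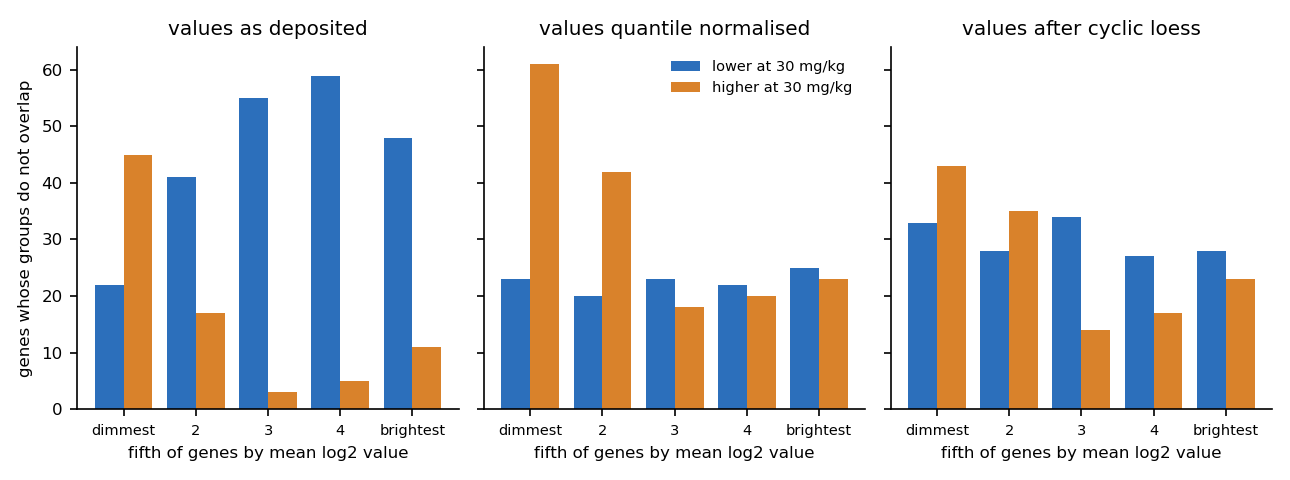
Number of genes whose 5 treated and 5 vehicle values do not overlap, lower (blue) and higher (orange) at 30 mg/kg, in 5 bins of 1908 genes by mean log2 value, for the values as deposited, after quantile normalisation and after cyclic loess. The 55 lower against 3 higher genes of the middle bin as deposited became 23 against 18 after quantile normalisation and 34 against 14 after cyclic loess.

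The genes described next were set apart by the absence of overlap or by their size, so their values are a description. The widest separation was in Tfrc, the transferrin receptor through which cells take up iron. Its values were 12.07, 10.91, 11.29, 10.78 and 10.89 in vehicle and 9.88, 10.04, 9.71, 9.97 and 10.17 at 30 mg/kg. Vehicle sample 1 stood highest, and a gap of 0.61 separated the groups. Vehicle was 2.36-fold higher (95% confidence interval 1.78 to 3.12; limma adjusted p = 0.0979), and the gene's other probe set gave a log2 difference of -1.37. Leaving out vehicle sample 1 gave Tfrc a limma adjusted p of 0.00274, and leaving out vehicle sample 5 gave 0.0317; over all 25 alternatives it ran from 0.00274 to 0.229. At 10 mg/kg, against the same vehicle samples, the log2 difference was -1.21. Of 28 measured genes of iron and heme handling, 3 were lower at an unadjusted p under 0.05 (Tfrc, Alad and Blvra), a share of 10.7% beside 10.8% of all genes. The 1 higher member was Hamp, the iron hormone hepcidin, with vehicle values from 6.37 to 13.34 and treated values from 12.99 to 13.87.

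The sterol exporters Abcg5 and Abcg8, which work as a pair in the canalicular membrane, were both lower. Abcg5 read 9.29, 9.83, 9.02, 8.97 and 8.87 in vehicle and 7.67, 6.92, 8.34, 8.38 and 8.57 at 30 mg/kg, so that vehicle was 2.33-fold higher (1.51 to 3.59; limma adjusted p = 0.127). Abcg8 read 7.34, 8.08, 7.55, 7.23 and 7.04 in vehicle and 6.20, 4.72, 6.41, 6.79 and 6.80 at 30 mg/kg, 2.41-fold higher in vehicle (1.43 to 4.03; limma adjusted p = 0.156). Vehicle sample 2 was the highest and treated sample 2 the lowest in both genes, and the groups were apart by 0.30 and 0.25. Other LXR targets lay on both sides. Abca1, which loads cholesterol onto lipoproteins, averaged 10.68 ± 0.33 against 9.43 ± 1.1 in vehicle, and Lpcat3, which remodels phospholipids, 11 ± 0.11 against 10.74 ± 0.25 (SD, n = 5 each). Scarb1, the receptor that takes up cholesterol from high density lipoproteins, was lower, at 10.14 ± 0.073 against 10.41 ± 0.19 (SD, n = 5 each), with groups that overlapped. Srebf1, the gene of SREBP-1, had a log2 difference of 0.01. Of 12 measured genes of sterol export and LXR targets, 9 had a lower mean (median log2 difference -0.09), and 3 were lower and 2 higher at an unadjusted p under 0.05 (limma; 25% and 16.7%, against 10.8% and 5.27% of all genes).

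Abcg5 and Abcg8 lie head to head, so that 1 stretch of DNA precedes both. In RefSeq (GRCr8) their starts are 206 bases apart, and 295 of the 300 bases of their promoter windows (250 before to 50 after the start) are the same DNA read on opposite strands. The window of Abcg5, chr6:15717686-15717985 on the + strand, is shown because both genes beside it were lower. Capitals mark matches on either strand to 6 motifs: CCAAT of the CCAAT box, CACGTG of the E-box, TATAAA of the TATA box, GGGCGG of the GC box, TCACNCCAC of a sterol element and AGGTCA of the nuclear receptor half-site, none of which contains another.
Abcg5: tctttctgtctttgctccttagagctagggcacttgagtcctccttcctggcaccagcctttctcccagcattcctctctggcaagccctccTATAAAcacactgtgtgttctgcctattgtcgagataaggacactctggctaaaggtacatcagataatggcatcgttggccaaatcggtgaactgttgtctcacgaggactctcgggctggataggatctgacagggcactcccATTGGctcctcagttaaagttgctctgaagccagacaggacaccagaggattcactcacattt
The window holds 1 TATAAA and 1 CCAAT, read as ATTGG on this strand, and no match to the other letters. CCAAT occurs in 37.5% and TATAAA in 14.2% of all 33469 RefSeq promoter windows of that length, and in 38.3% and 6.83% of the windows of 8027 tested genes.

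Retsat, the retinol saturase, had the largest difference among the 306 genes. Its vehicle values of 13.04, 13.37, 13.22, 13.20 and 13.19 were tight, and its treated values of 12.21, 11, 12.59, 10.78 and 12.11 were scattered, with samples 2 and 4 lowest. Vehicle was 2.76-fold higher (1.61 to 4.72; limma adjusted p = 0.131). The genes on either side of Retsat on chromosome 4 were higher. Elmod3, of the ELMO domain family, read 6.97, 6.82, 6.79, 6.94 and 6.83 in vehicle and 7.16, 7.51, 7.00, 7.21 and 7.06 at 30 mg/kg, 1.24-fold higher (1.07 to 1.45; limma adjusted p = 0.196). Tgoln2, a membrane protein of the trans-Golgi network, read 10.64, 10.78, 10.84, 10.73 and 10.86 in vehicle and 11.19, 11.51, 11.13, 11.18 and 11.08 at 30 mg/kg, 1.36-fold higher (1.2 to 1.56; limma adjusted p = 0.0979). Treated sample 2, among the lowest in Retsat, was the highest in both neighbours. Other filtered probe sets gave log2 differences of 0.21 for Elmod3, without overlap, and of 0.31 and 0.04 for Tgoln2 against 0.45. The next measured genes along the chromosome, Capg at -0.31 and Tcf7l1 at 0.00 on the log2 scale, had groups that overlapped.

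Retsat and Elmod3 (the first of its 2 RefSeq windows) start 230 bases apart and run away from each other, and 271 bases of their RefSeq windows are shared. The Retsat window, chr4:106211209-106211508 on the + strand, is given because the genes on its sides differed in opposite directions, with capitals as above.
Retsat: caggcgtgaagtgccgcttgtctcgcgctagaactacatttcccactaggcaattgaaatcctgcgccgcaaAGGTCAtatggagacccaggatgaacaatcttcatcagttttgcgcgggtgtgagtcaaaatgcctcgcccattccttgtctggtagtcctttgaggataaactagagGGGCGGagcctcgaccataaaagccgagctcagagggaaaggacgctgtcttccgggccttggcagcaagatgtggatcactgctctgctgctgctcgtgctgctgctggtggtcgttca
It holds 1 AGGTCA and 1 GGGCGG, which occur in 16.2% and 33.1% of all windows and in 12.2% and 62.9% of the windows of 8027 tested genes. Of 9513 genes placed on the RefSeq chromosomes, 306 were without overlap, and 15 pairs of neighbours were both among these. Whether that is more than unrelated positions would give was not tested. Besides the pairs above, the 15 include Nat8 and Tprkb, both lower, Akap8 and Akap8l, both lower, and Col4a1 at -0.27 beside Irs2 at 0.53.

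Several transporters and enzymes of the hepatocyte were among the 20 lower genes with the largest differences. Slc13a4, a sulfate carrier, read 10.60, 11.14, 10.92, 11.07 and 10.72 in vehicle and 10.17, 9.87, 9.46, 10.14 and 10.56 at 30 mg/kg, 1.81-fold higher in vehicle (1.43 to 2.28; limma adjusted p = 0.0979). The groups were apart by only 0.05. Slc13a3, its relative that carries dicarboxylates, was 1.63-fold higher in vehicle (1.28 to 2.07), with 8.57 as the lowest vehicle and 8.40 as the highest treated value. Of 184 measured solute carriers, 20 were lower and 11 higher at an unadjusted p under 0.05 (10.9% and 5.98%), near the shares of all genes. After quantile normalisation the carriers had 10 lower and 17 higher, where all 9540 genes had 546 and 738. After cyclic loess they had 12 and 17, where all genes had 627 and 638.

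Sephs2, which makes the selenium donor for selenoproteins, read 11.75, 11.40, 11.22, 11.43 and 11.56 in vehicle and 10.72, 10.76, 10, 10.90 and 10.87 at 30 mg/kg. Vehicle was 1.77-fold higher (1.17 to 2.68; limma adjusted p = 0.205), and treated sample 3 stood lowest. Gpx4, the selenoprotein that reduces lipid peroxides, was 1.11-fold higher in vehicle (1.03 to 1.19), with groups 0.01 apart as deposited and overlapping after quantile normalisation or cyclic loess. Nat8, an acetyltransferase that completes mercapturates, was 1.69-fold higher in vehicle (1.23 to 2.32), and its groups overlapped after quantile normalisation. Mpst, a sulfurtransferase of cysteine breakdown, was 1.22-fold higher in vehicle (1.13 to 1.31; limma adjusted p = 0.0979), and Prodh2, the hydroxyproline dehydrogenase, 1.27-fold (1.12 to 1.45).

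Foxa3, a forkhead transcription factor of hepatocytes, read 8.88, 9.11, 8.93, 8.82 and 8.40 in vehicle and 7.81, 8.12, 7.82, 8.07 and 8.32 at 30 mg/kg, 1.74-fold higher in vehicle (1.29 to 2.35; limma adjusted p = 0.131). Of 45 measured nuclear receptors and hepatic transcription factors, 5 were lower (11.1%, near the 10.8% of all genes) and 1 higher at an unadjusted p under 0.05, and 3 and 2 after quantile normalisation or cyclic loess. Foxa3 was the only one of them without overlap. Other lower genes of the 20 largest differences serve signalling and the membrane: Rab32, a small GTPase of organelle traffic, was 1.54-fold higher in vehicle (1.26 to 1.87), Rasd1, a Ras-like GTPase induced by glucocorticoids, 1.49-fold (1.18 to 1.89), Paqr7, a membrane progestin receptor, 1.42-fold (1.19 to 1.70), and Nostrin, which binds endothelial nitric oxide synthase, 1.37-fold (1.14 to 1.64).

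**Figure D4:**
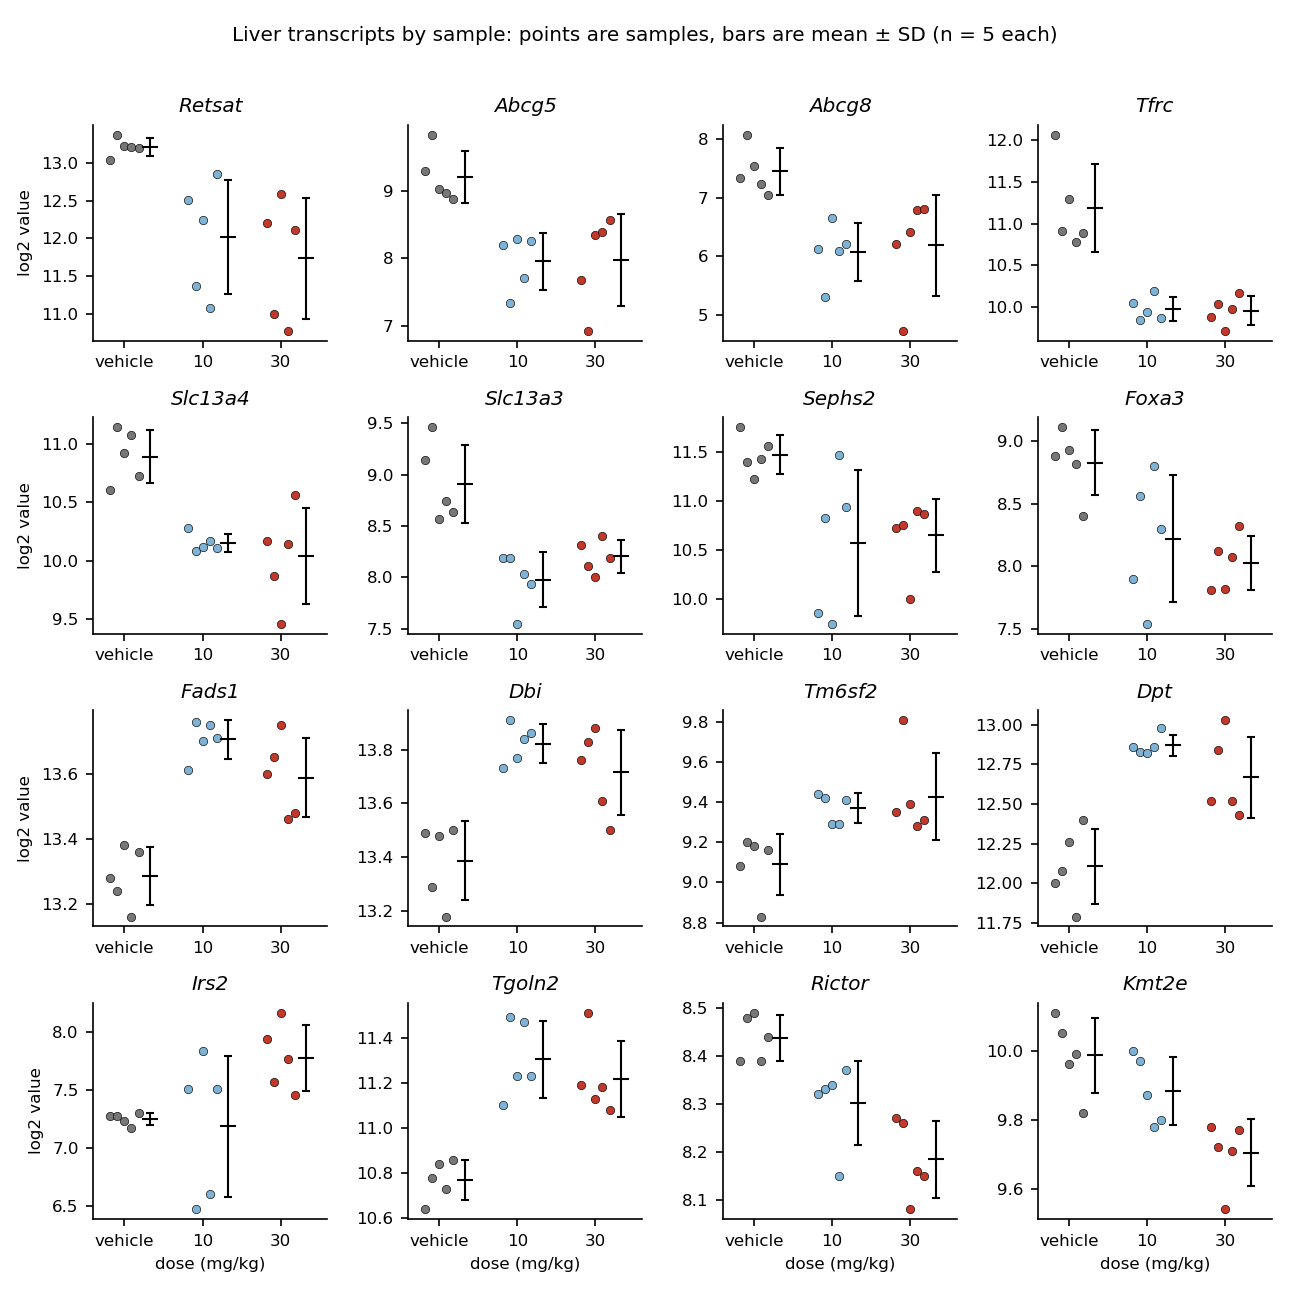
Log2 values of 16 genes in each sample by dose, with bars for the mean ± SD of 5; each panel has its own vertical axis, which does not start at 0. In every panel the 5 vehicle and the 5 samples at 30 mg/kg do not overlap, by 0.61 in Tfrc and by 0.01 in Dbi.

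Of 146 measured genes of splicing and RNA binding, 23 were lower and 2 higher at an unadjusted p under 0.05. These were 15.8% and 1.37%, against 10.8% and 5.27% of all genes. All 6 without overlap were lower, 4.11% of the list against 2.36% of all genes. Luc7l3, a splicing factor of the U1 particle, read 9.83, 9.82, 9.69, 9.83 and 9.67 in vehicle and 9.48, 9.57, 9.42, 9.56 and 9.34 at 30 mg/kg. Vehicle was 1.23-fold higher (1.12 to 1.34; limma adjusted p = 0.0979), and another filtered probe set of it gave -0.35 without overlap. Srsf5, a serine- and arginine-rich splicing factor, was 1.21-fold higher in vehicle (1.11 to 1.31; limma adjusted p = 0.0979). Hnrnpc, Hnrnph1 and Luc7l2 differed by -0.17, -0.18 and -0.17 on the log2 scale. After quantile normalisation the list had 11 lower and 4 higher, where all 9540 genes had 546 and 738. After cyclic loess it had 10 and 3, where all genes had 627 and 638.

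Of 102 measured chromatin genes, 17 were lower and 1 higher at an unadjusted p under 0.05 (16.7% and 0.98%, against 10.8% and 5.27% of all genes). Without overlap, 7 were lower, 6.86% of the list against 2.36% of all genes. Kdm6b, which removes repressive methyl groups from histone H3, read 8.65, 8.32, 8.25, 8.33 and 8.15 in vehicle and 7.84, 7.80, 7.89, 8.03 and 8.11 at 30 mg/kg, 1.33-fold higher in vehicle (1.13 to 1.56). Kmt2e, of the lysine methyltransferase family, read 10.11, 10.05, 9.96, 9.99 and 9.82 in vehicle and 9.78, 9.72, 9.54, 9.71 and 9.77 at 30 mg/kg, 1.22-fold higher in vehicle (1.11 to 1.34; limma adjusted p = 0.121). Its 4 other filtered probe sets gave log2 differences of -0.25, -0.33, -0.32 and -0.08, and the first 3 of these did not overlap either. Brd2, Brd3, Kdm3a, Arid4a and Sirt2 completed the 7. After quantile normalisation or cyclic loess the chromatin list had 9 lower and 2 higher members at an unadjusted p under 0.05. All 9540 genes had 546 lower and 738 higher after quantile normalisation, and 627 and 638 after cyclic loess. Without overlap, the list had 4 lower and 1 higher after quantile normalisation, and 5 and 1 after cyclic loess.

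Zinc finger and homeobox factors, 209 measured, had 31 lower and 12 higher members at an unadjusted p under 0.05 as deposited (14.8% and 5.74%). After quantile normalisation they had 18 lower and 17 higher. All 9540 genes moved the same way, from 1032 lower and 503 higher to 546 and 738. Zfp513 was 1.2-fold higher in vehicle (1.09 to 1.33), with vehicle values from 9 to 9.08 and treated values from 8.57 to 8.85. Ubiquitin ligases and deubiquitinases had 20 lower (9.57%, near the 10.8% of all genes) and 6 higher of 209 as deposited and 12 of each after quantile normalisation. Of them Fbxo11, a substrate receptor of a ubiquitin ligase, was 1.19-fold higher in vehicle (1.1 to 1.27; limma adjusted p = 0.0979). Protein kinases and phosphatases had 24 lower (11.1%, also near all genes) and 8 higher of 216, and 10 and 12 after quantile normalisation. Among them Stk16, a Golgi kinase, had vehicle values from 10.19 to 10.24 and treated values from 9.87 to 10.10.

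Of 73 measured mitochondrial ribosomal proteins, 66 had a lower mean at 30 mg/kg, where 62% of all genes did. At an unadjusted p under 0.05 by limma, 13 were lower and 0 higher (17.8% and 0%, against 10.8% and 5.27% of all genes), with 0 called after adjustment. The median log2 difference was -0.06, against -0.03 for all genes. The 5 without overlap were Mrpl27, Mrpl33, Mrpl37, Mrpl46 and Mrpl52, with differences from -0.11 to -0.19. They were 6.85% of the list, against 2.36% of all genes that were lower without overlap. Only 1 of the list was lower without overlap after quantile normalisation, 1 after cyclic loess and 3 with arrays centred on the median. All genes then had 113, 150 and 287 lower without overlap. After quantile normalisation 52 of 73 had a lower mean, with 6 lower and 1 higher at an unadjusted p under 0.05 and a median of -0.020. After cyclic loess these were 53, 6, 0 and -0.022. Translation factors and tRNA synthetases had 13 lower and 0 higher of 90 as deposited (14.4% and 0%, against 10.8% and 5.27% of all genes). They had 6 and 2 after quantile normalisation or cyclic loess. All 9540 genes then had 546 lower and 738 higher, or 627 and 638 after cyclic loess. Cytosolic ribosomal proteins had 1 lower and 1 higher of 43 (2.33% and 2.33%, both under the shares of all genes). The respiratory chain and ATP synthase, 79 measured, had 2 lower and 3 higher members as deposited (2.53% and 3.8%, also under those shares). They had 0 and 5 after quantile normalisation, 3 and 1 with arrays centred on the median, and 0 and 10 after cyclic loess.

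**Figure D5:**
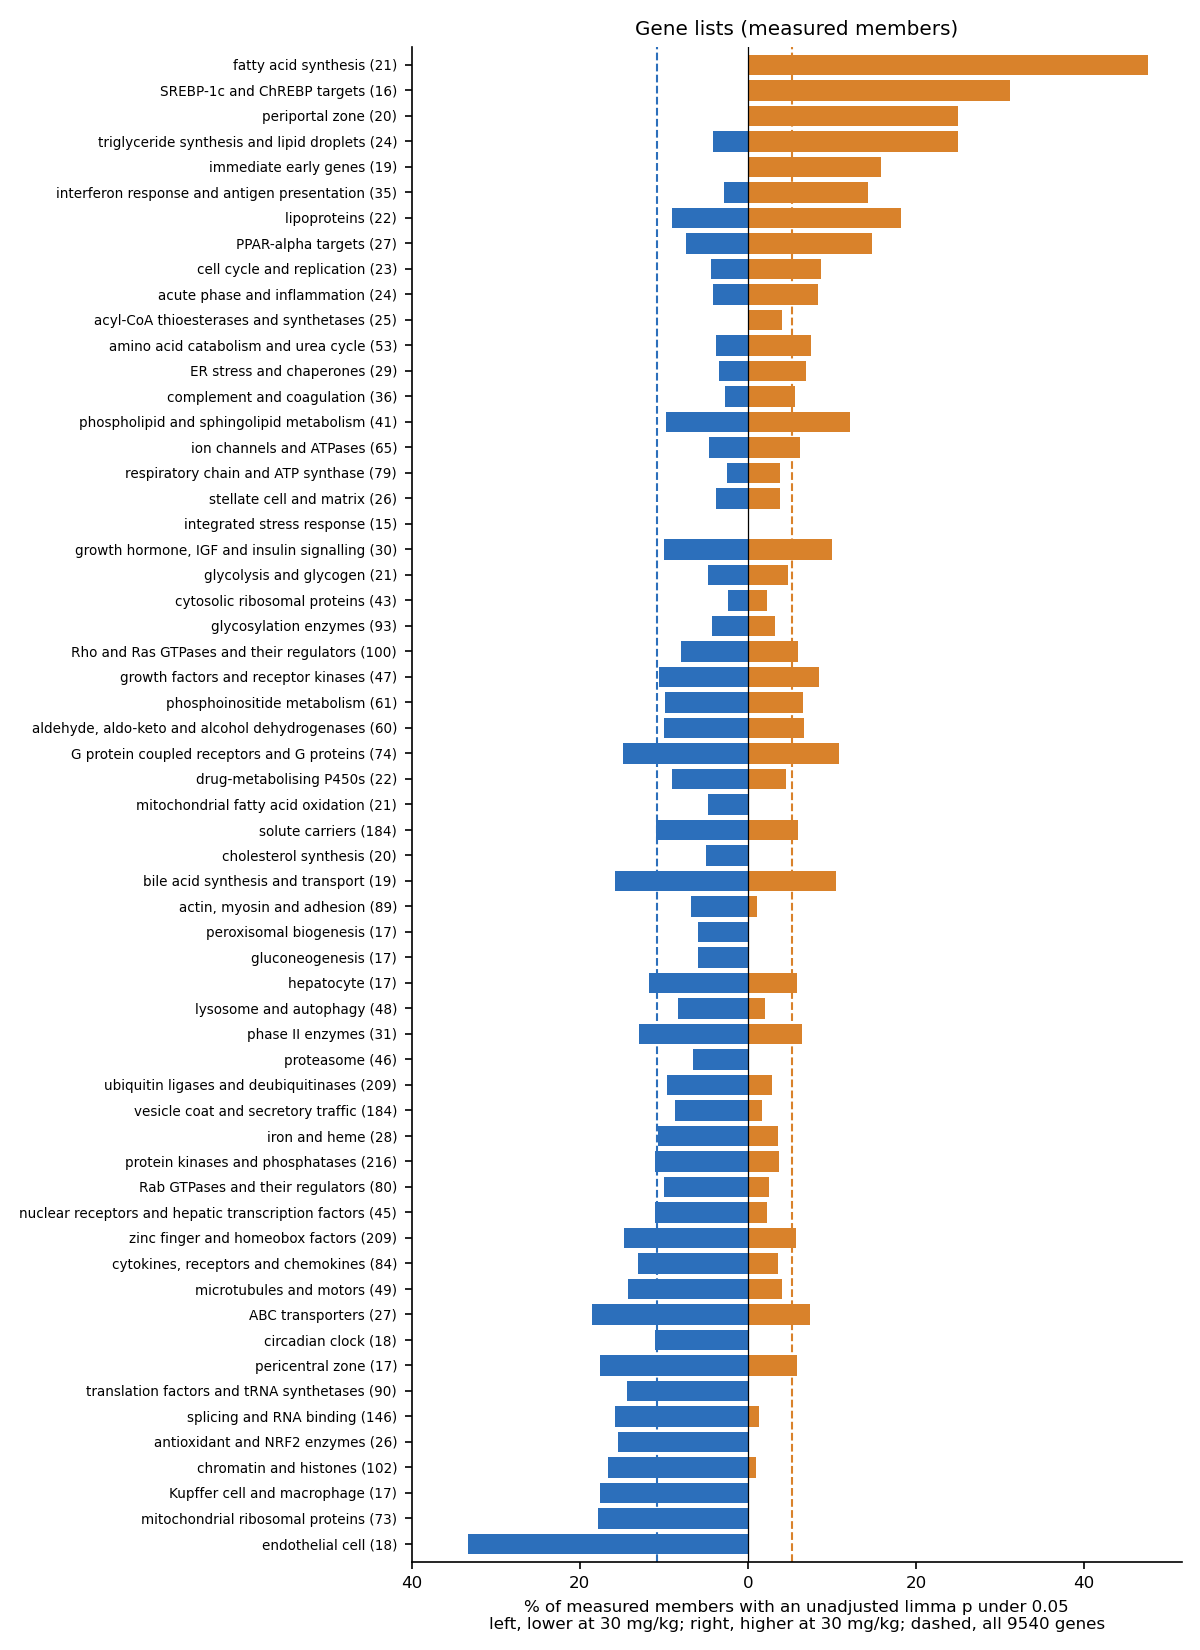
Share of the measured members of each gene list with an unadjusted limma p under 0.05, lower (blue, to the left) and higher (orange, to the right) at 30 mg/kg, for lists with at least 15 measured members; dashed lines mark all 9540 genes, 10.8% lower and 5.27% higher. Fatty acid synthesis stands at 47.6% higher and 0 lower, endothelial markers at 33.3% lower and 0 higher.

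The genes of fat synthesis ran against the general tilt. Of 21 measured genes of fatty acid synthesis, 10 were higher and 0 lower at an unadjusted p under 0.05 by limma (0 after adjustment), against 5.27% higher among all genes, and the median log2 difference was 0.30. Fads1, the delta-5 desaturase, was the only one without overlap. It read 13.28, 13.24, 13.38, 13.16 and 13.36 in vehicle and 13.60, 13.65, 13.75, 13.46 and 13.48 at 30 mg/kg, 1.23-fold higher (1.13 to 1.35; limma adjusted p = 0.0979). The groups of the drug's targets overlapped as deposited. Acaca read 9.03, 8.96, 9.18, 8.81 and 9.74 in vehicle and 9.87, 10.93, 10.31, 9.89 and 9.40 at 30 mg/kg, 1.91-fold higher (1.34 to 2.72; limma adjusted p = 0.135). Acacb read 6.88, 6.70, 6.79, 5.91 and 7.43 in vehicle and 7.56, 7.97, 7.97, 7.44 and 7.42 at 30 mg/kg, 1.90-fold higher (1.38 to 2.62; limma adjusted p = 0.121). Vehicle sample 5 was the highest vehicle sample in both and the one vehicle value inside the treated range. The groups of Acacb did not overlap after quantile normalisation or cyclic loess, and those of Acaca overlapped under every scaling. It was also the highest of the vehicle samples in Fasn, the fatty acid synthase, at 11.64 against 9.60 to 10.77 in the others, and in Acly, which makes cytosolic acetyl-CoA, at 12.95 against 11.43 to 11.99.

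Dbi, the acyl-CoA binding protein that carries fatty acyl-CoA in the cytosol, read 13.49, 13.29, 13.48, 13.18 and 13.50 in vehicle and 13.76, 13.83, 13.88, 13.61 and 13.50 at 30 mg/kg, 1.26-fold higher (1.12 to 1.41; limma adjusted p = 0.127). Its groups were 0.01 apart and overlapped with arrays centred on the median. Tm6sf2, a membrane protein that helps to load lipid onto very low density lipoproteins, read 9.08, 9.20, 9.18, 8.83 and 9.16 in vehicle and 9.35, 9.81, 9.39, 9.28 and 9.31 at 30 mg/kg, 1.27-fold higher (1.1 to 1.46; limma adjusted p = 0.156). Of 24 measured genes of triglyceride synthesis and lipid droplets, 6 were higher and 1 lower at an unadjusted p under 0.05. Their shares were 25% and 4.17%, against 5.27% and 10.8% of all genes. The lower one, G0s2, which inhibits adipose triglyceride lipase, differed by -0.99 on the log2 scale. Fatty acid oxidation in mitochondria had 1 lower and 0 higher of 21 (4.76% and 0%, against 10.8% and 5.27% of all genes). Cpt1a, the carnitine transferase that malonyl-CoA inhibits, read 12.64 ± 0.31 against 12.68 ± 0.19 (SD, n = 5 each).

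The windows of the 3 higher lipid genes without overlap and of Tfrc, the lower gene with the widest gap, are set together to compare their letters. Fads1 lies at chr1:216252442-216252741 on the + strand, Dbi at chr13:33802569-33802868 on the - strand, Tm6sf2 at chr16:19385311-19385610 on the - strand and Tfrc at chr11:81690269-81690568 on the - strand (RefSeq, GRCr8), each written 5′ to 3′ along its gene with capitals as above.
Fads1: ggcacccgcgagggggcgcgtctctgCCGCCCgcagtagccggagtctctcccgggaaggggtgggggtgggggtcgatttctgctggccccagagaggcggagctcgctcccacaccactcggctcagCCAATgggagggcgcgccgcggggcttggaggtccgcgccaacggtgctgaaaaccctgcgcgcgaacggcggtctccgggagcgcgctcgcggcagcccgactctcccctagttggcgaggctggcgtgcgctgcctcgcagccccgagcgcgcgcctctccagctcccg
Dbi: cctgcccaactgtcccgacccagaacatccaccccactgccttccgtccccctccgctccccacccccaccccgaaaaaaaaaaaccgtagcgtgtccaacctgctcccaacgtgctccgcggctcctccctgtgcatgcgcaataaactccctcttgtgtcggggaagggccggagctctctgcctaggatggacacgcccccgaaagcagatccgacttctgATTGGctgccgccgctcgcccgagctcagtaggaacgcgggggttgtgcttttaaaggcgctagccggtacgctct
Tm6sf2: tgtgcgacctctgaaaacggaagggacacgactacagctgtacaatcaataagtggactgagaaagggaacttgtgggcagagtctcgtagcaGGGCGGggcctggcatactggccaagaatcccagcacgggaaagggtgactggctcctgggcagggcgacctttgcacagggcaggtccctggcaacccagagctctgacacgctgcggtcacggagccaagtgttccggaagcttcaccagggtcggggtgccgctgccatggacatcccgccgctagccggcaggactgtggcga
Tfrc: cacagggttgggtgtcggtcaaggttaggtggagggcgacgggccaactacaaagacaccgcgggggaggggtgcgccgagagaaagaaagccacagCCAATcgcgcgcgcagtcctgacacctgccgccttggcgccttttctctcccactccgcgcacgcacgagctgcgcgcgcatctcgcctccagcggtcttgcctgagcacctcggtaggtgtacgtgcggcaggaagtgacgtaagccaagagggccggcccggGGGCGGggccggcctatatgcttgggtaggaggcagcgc
CCAAT or its complement is in Fads1, Dbi and Tfrc, and GGGCGG or its complement in Fads1, Tm6sf2 and Tfrc. None of the 4 windows holds TCACNCCAC, which is in 1.12% of all windows and 1.11% of those of tested genes. Of the 306 genes, 193 of the 225 lower and 62 of the 81 higher had a RefSeq window. CCAAT was in 39.9% of the lower and 40.3% of the higher genes, against 38.3% of 8027 tested genes with a window. GGGCGG was in 64.2%, 56.5% and 62.9%, and AGGTCA in 11.4%, 16.1% and 12.2% in the same order.

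Insulin signalling held values on both sides. Irs2, an adaptor of the insulin receptor, read 7.28, 7.28, 7.23, 7.17 and 7.30 in vehicle and 7.94, 7.57, 8.17, 7.77 and 7.46 at 30 mg/kg, 1.44-fold higher (1.04 to 2.01; limma adjusted p = 0.266). At 10 mg/kg it was scattered, from 6.47 to 7.84, and averaged -0.07 below vehicle on the log2 scale. The difference between the doses in Irs2 was 0.60 (0.12 to 1.08; limma adjusted p = 0.851). Rictor, a core part of mTOR complex 2, read 8.39, 8.48, 8.49, 8.39 and 8.44 in vehicle and 8.27, 8.26, 8.08, 8.16 and 8.15 at 30 mg/kg, 1.19-fold higher in vehicle (1.1 to 1.29; limma adjusted p = 0.0979). Tsc1, which restrains mTOR complex 1, was 1.2-fold higher in vehicle (1.08 to 1.33) and overlapped after quantile normalisation. Insrr, a relative of the insulin receptor, was 1.23-fold higher at 30 mg/kg (1.11 to 1.36) on a dim probe set with vehicle values from 6.29 to 6.48; 2 dimmer probe sets of it below the filter gave 0.10 and -0.04.

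The other higher genes were few and mostly dim. Prss32, a serine protease, read 6.06, 6.15, 6.13, 5.95 and 5.78 in vehicle and 6.89, 6.67, 6.65, 6.47 and 6.43 at 30 mg/kg, 1.52-fold higher (1.12 to 2.07; limma adjusted p = 0.205). Its vehicle mean of 6.01 lay under the filter value of 6.10. Dpt, the gene of dermatopontin, a collagen-binding matrix protein, was bright, at 12, 12.08, 12.26, 11.79 and 12.40 in vehicle and 12.52, 12.84, 13.03, 12.52 and 12.43 at 30 mg/kg, 1.48-fold higher (1.24 to 1.76; limma adjusted p = 0.0979). Col4a1, a collagen of basement membranes, was 1.2-fold higher in vehicle (1.07 to 1.35), and 20 of 26 measured stellate cell and matrix genes had a lower mean at 30 mg/kg. Among other bright genes, Crp, the C-reactive protein, was 1.22-fold higher at 30 mg/kg (1.1 to 1.35), Vkorc1, which recycles vitamin K, 1.22-fold (1.1 to 1.34), and Gsta1, a glutathione transferase, 1.13-fold (1.06 to 1.21). Among the dim ones, Cdc45 and Mcm5, both of the replicative helicase, were 1.21-fold (1.07 to 1.36) and 1.11-fold higher (1.04 to 1.2). Other probe sets of Cdc45, all below the filter, gave log2 differences of 0.16, 0.26 and 0.06 with overlap. The cell cycle and replication list, which holds Mcm5, had 23 measured genes and a median log2 difference of 0.003. At an unadjusted p under 0.05 by limma it had 2 higher and 1 lower (8.7% and 4.35%, against 5.27% and 10.8% of all genes).

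Among markers of other cells, those of macrophages, endothelial cells, stellate cells with matrix, and blood had mostly lower means at 30 mg/kg. The few measured ones of cholangiocytes and of lymphocytes and neutrophils did not. Of 17 measured macrophage markers, 16 had a lower mean, where 62% of all genes did, and 3 (17.6%, against 10.8% of all genes) were lower at an unadjusted p under 0.05 (Cd163, Cd5l and Mrc1), with 0 higher by limma and 0 called. The mean of the macrophage markers lay between 8.92 and 9.54 in vehicle and between 8.58 and 9.37 at 30 mg/kg. Of 18 measured endothelial markers, 17 had a lower mean, 6 (33.3%) were lower and 0 higher at an unadjusted p under 0.05, as deposited, and 3 were lower after quantile normalisation or cyclic loess. Their mean lay between 8.21 and 8.38 against 8.04 and 8.28. Of 26 measured stellate cell and matrix genes, 20 had a lower mean (median log2 difference -0.12), as did 6 of 7 blood markers (-0.22). At an unadjusted p under 0.05, the former had 1 lower and 1 higher (3.85% and 3.85%), blood 1 and 0 (14.3% and 0%). Of 5 measured cholangiocyte markers 2 had a lower mean (median log2 difference 0.04), as did 2 of 6 lymphocyte and neutrophil markers (0.02), with 0 of either list at an unadjusted p under 0.05. Emcn, an endothelial sialomucin, was the one endothelial marker without overlap, 1.2-fold higher in vehicle (1.08 to 1.33). Its groups overlapped after quantile normalisation and cyclic loess. All 17 macrophage markers on the array and 18 of 20 endothelial markers passed the filter. Only 5 of 11 cholangiocyte markers and 6 of 23 lymphocyte and neutrophil markers did, the latter with a median log2 value of 6.59. Most markers of these 2 lists were thus not measured, and their values say little about those cells. The part of these cells in the lower genes, such as the endothelial Nostrin, was not tested. Of 20 measured genes of the periportal zone of the lobule, 5 were higher (25%, against 5.27% of all genes) and 0 lower at an unadjusted p under 0.05, with a median log2 difference of 0.11. The number higher was 3 after quantile normalisation, 2 with arrays centred on the median and 4 after cyclic loess. Of 17 measured pericentral genes, 3 were lower (17.6%) and 1 higher (5.88%), with a median of -0.15. The difference between the zones was not tested.

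With all 15929 filtered probe sets as features, unnamed ones included, 10 were called by limma (0.0628%), all lower at 30 mg/kg, and 527 did not overlap (3.31%), 380 lower (2.39%) and 147 higher (0.923%). Both probe sets of Tfrc were among the 10, with adjusted p = 0.0317 and 0.0497. So was 1 of the 5 filtered probe sets of Kmt2e (adjusted p = 0.0497). The lowest adjusted p, 0.00418, belonged to a probe set of Masp2, the protease of the lectin pathway of complement, which read 8.22, 8.09, 8.07, 8.20 and 8.10 in vehicle and 7.68, 7.57, 7.68, 7.67 and 7.59 at 30 mg/kg. The 2 brighter probe sets of Masp2 gave log2 differences of -0.03 and 0.08, so its probe sets disagreed. The other 6 called probe sets have no gene symbol in the platform annotation; the one with the largest difference, -0.98 on the log2 scale, read 6.57, 6.87, 6.91, 7.09 and 6.65 in vehicle and 5.70, 5.45, 5.78, 6.28 and 5.97 at 30 mg/kg. Among the 306 genes, 82 had another filtered probe set, and in 64 of these every other probe set had the same sign. In only 15 of the 82 was another probe set also without overlap in the same direction.

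Most of the separations were narrow. The distance between the nearest values of the groups had a median of 0.028 for lower and 0.034 for higher genes, and exceeded 0.2 in 5 lower genes (Tfrc, Retsat, Sephs2, Abcg5 and Abcg8) and 2 higher genes (Prss32 and Tgoln2). The vehicle sample nearest to the treated group was sample 5 in 77 of the 225 lower genes, more often than any other vehicle sample (31 to 51), and the nearest treated sample was sample 2 in 68. Without vehicle sample 5 the groups did not overlap in 616 genes, 441 of them lower, and without treated sample 2 in 532. Leaving out a sample of either group can only keep or raise this count. Without vehicle sample 5, limma called 5 genes: Scd and Yeats4 higher, and Abca8, Mat2a and Tfrc lower. Scd was then 25.7-fold higher and all 4 remaining vehicle values, 6.82 to 8.94, lay below its treated values.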

How the data were processed

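Total RNA of 15 liver samples was hybridised to 15 arrays. The deposited log2 values, 1 per probe set, had been summarised and normalised by the authors; per the submitters' processing notes, RMA, limma 2.14.7 and GCRMA 2.12.1 were used, with the choice between RMA and GCRMA for the summary not stated (not given in the sources used here). Of 31099 probe sets, 57 were controls and 20826 carried 1 gene symbol in the platform annotation, updated by gene ID to RefSeq (GRCr8, 20758 found). A probe set needed at least 5 of its 15 values above 6.10, the median of all values, and the brightest stood for its gene. Where an old annotation splits or misplaces a gene, its value follows the file.

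Group means were fitted to all 15 arrays with limma 3.58.1 in R 4.3.3 (eBayes without trend), with Benjamini-Hochberg adjustment over 9540 genes. Fold changes are powers of 2 of differences in mean log2 value. Promoter windows came from RefSeq (GRCr8), with letters matched on both strands. The procedure was tested on simulated data. Named genes were the 14 largest rises and 20 largest falls among genes without overlap, up to 2 such genes per list (66 lists), Acaca, Acacb and genes of called probe sets; other named genes were chosen after their values were seen. Members and lists were chosen with earlier results of these data known. Precision is limited by the number of arrays. Alternatives were other filters, the mean of probe sets, every probe set as a feature, other scalings, trend and robust options, fewer samples, a replicate block and each sample left out. Same-numbered samples were checked for shared deviations.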

Additional observations from a re-analysis of the deposited data

Results flagged for a closer look

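In 17 of 162 groups of 5 checked over the 81 named genes (10.5%), the highest or lowest sample stood off by more than 0.71 of the group's range, where chance flags about 1 in 20. Among genes of lipid and selenium metabolism, treated sample 2 of Abcg8 read 4.72 against 6.20 to 6.80 in the others, treated sample 2 of Tm6sf2 9.81, and treated sample 3 of Sephs2 10 against 10.72 to 10.90. Treated sample 2 of Tgoln2 read 11.51 against 11.08 to 11.19. In the genes of the nucleus, treated sample 3 of Kmt2e read 9.54, treated sample 4 of Srsf5 10.96, treated sample 5 of Zfp513 8.57 and vehicle sample 5 of Akap8l 9.08. In genes of adhesion and immunity, vehicle sample 1 read 13.19 for Cxcl12 and 8.52 for Itgb3, and vehicle sample 3 read 8.08 for Tapbp against 8.58 to 8.65. Vehicle sample 4 read 9.57 for Eif4ebp3, a repressor of translation, and 12.14 for Akr1a1, an aldehyde reductase. Treated sample 4 read 6.57 for Atg14 and treated sample 5 read 7.51 for Atg4d, both of autophagy. Treated sample 1 read 13.60 for Gsta1 against 13.45 to 13.47, and treated sample 4 read 7.98 for Rac3 against 7.80 to 7.81.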

How the results depend on the processing

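No gene was called by limma in any fit with 1 value per gene on all samples, and without 1 sample there were 0 to 5 calls; every filtered probe set as a feature gave 10. With every probe set as a feature, 2510 of 15929 probe sets had an unadjusted p under 0.05 and 527 were without overlap. Without 1 sample, genes at an unadjusted p under 0.05 numbered 1160 to 1670. Genes without overlap stayed at 306 without a sample at 10 mg/kg, as that group does not enter the count. They numbered 389 to 616 without a vehicle or treated sample, where leaving out a value can only keep or raise the count. The share of lower genes, 67.2% at an unadjusted p under 0.05 and 73.5% without overlap, moved to 49.2% and 54.4% without a filter, 74.6% and 82.9% with a stricter filter, 42.5% and 40.8% after quantile normalisation, 75.6% and 79.7% after median centring and 49.6% and 53.2% after cyclic loess, which was chosen after the data were seen. It stayed between 64.6% and 68.8% and between 69.0% and 74.8% without 1 sample. Removing the filter adds dim genes, which lean higher; the cause of the dependence on scaling was not tested. With the replicate block, 1440 genes had an unadjusted p under 0.05 and 0 were called. Same-numbered treated and vehicle samples did not deviate together (correlations from -0.071 to 0.195), and 1 of 5 treated samples correlated best with its own number, so the numbers were not taken as pairs. The log2 difference of Tfrc passed the threshold with every probe set (-1.24) and on leaving out vehicle sample 1 (-1.02) or 5 (-1.31). That of Masp2, -0.03, ranged from -0.06 to 0.0048 on leaving out 1 sample, and was above 0 when that was vehicle sample 1 (0.0048) or 3 (0.0026). Signal over background limits the dim genes, where most of the higher ones lie.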
